A study of Saccharomyces cerevisiae with 8 samples.

Results

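Newly made RNA was compared directly between 2 strains of budding yeast (Saccharomyces cerevisiae), one carrying the med21-1002 allele and the other the med10-1002 allele. The comparison used the count files of 4 of the 8 libraries of the series, 2 per strain, and all 6030 annotated transcripts; 2 parent libraries entered the same fit to show where the parent lies, and the 2 med7-1002 libraries were left out. All groups shared 1 background, so the controls also carry its alleles and reporter. They are labelled MATa, with the marker alleles ade-, can1-100 and cyh2r, the allele his3-11,15, a leu2 allele that holds a pair of mutations, as well as trp1-1 and ura3, and in addition hsp82- and the DHSE-lacZ reporter. To this background the med21-1002 strain adds med21-1002 and the med10-1002 strain adds med10-1002, and the parent adds neither. The labels describe no allele as a deletion and credit the strains to Singh et al. 2006. Per the labels' protocols, every culture grew in YPD, a rich glucose medium, at 30 °C to an OD600 of 0.8 and then received 5 mM 4-thiouracil for 6 min. Cells use this uracil analogue in place of uracil, so RNA made in those minutes carries sulfur atoms by which it can be purified.

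Mediator is the large protein complex that connects activators bound upstream of a gene to RNA polymerase II and the general transcription factors at its start. It has head, middle and tail modules and a kinase module that comes and goes. Med21 (gene SRB7) and Med10 (gene NUT2) are both small subunits of the middle module, which joins the head to the tail and the kinase module. Both are needed for growth in yeast.

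Each library held between 14243200 and 21190842 counts assigned to transcripts, and 5701 transcripts had enough reads to be tested. Levels are given as CPM, the read count of a transcript divided by its library's total and brought to a common size with TMM scaling factors, so each value is relative to the other transcripts of its library. The log2 fold changes are med21-1002 over med10-1002, each with its standard error (SE), and a transcript counted as called at an adjusted p under 0.05 in the quasi-likelihood test of edgeR. The log2 difference between the replicates of a group had an SD of 0.35 in med21-1002, 0.22 in med10-1002 and 0.26 in parent. The labels do not say that the libraries of a group came from separate cultures, so p-values measure the spread between these libraries, which may be technical. They give the med21-1002 libraries other barcodes than the med10-1002 libraries and name no sequencing run, so a difference of run and the difference of strain cannot be told apart. The labelled mating type went against its markers in all 3 groups. STE3, the a-factor receptor that alpha cells carry, stood at 396 and 348 CPM in parent, 372 and 321 in med21-1002 and 320 and 296 in med10-1002, while MFA1 and MFA2, the a-factor genes of a cells, were at or below 1.03 CPM in every library. Summed over their lists, the tested a-cell genes reached 16.1 to 18.1 CPM in med21-1002, 64.8 to 66.2 in med10-1002 and 27.0 to 28.1 in parent, of which 2 of 5 were called lower in med21-1002. The 4 tested alpha-cell genes reached 959 to 1051, 876 to 951 and 1232 to 1307 CPM.

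The direct comparison called 2700 of the 5701 transcripts, or 47.4%. Of these, 1278 (22.4%) were higher in med21-1002 and 1422 (24.9%) were lower. Called changes of at least 2-fold were unevenly split, with 110 higher (1.93%) and 505 lower (8.86%). Against parent in the same fit, med21-1002 had 1694 calls (29.7%) and med10-1002 had 2102 (36.9%); both of these comparisons share the parent libraries. The number of calls moved with single libraries: it was 1568 without med10-1002 replicate 1, 1838 without its replicate 2 and 3278 without med21-1002 replicate 1. With the 2 med7-1002 libraries added to the fit it was 1150, and in none of these settings was a called transcript called in the opposite direction.

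**Figure D1:**
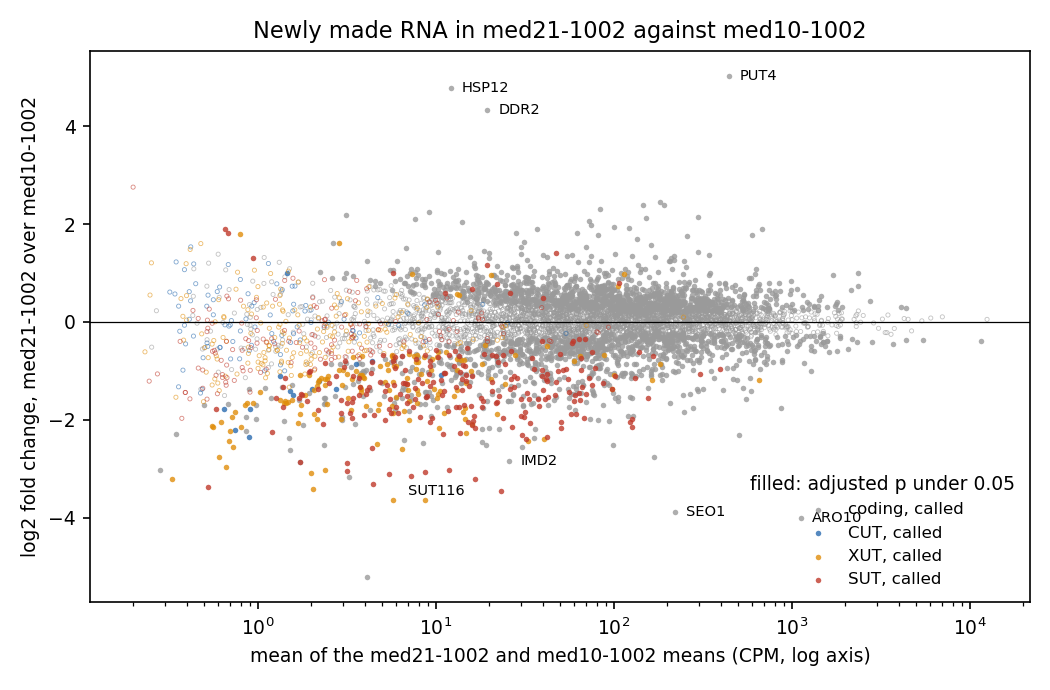
Log2 fold change of med21-1002 over med10-1002 for the 5701 tested transcripts against the mean CPM of the 2 strains (log axis); colours mark the transcript class and filled points are called. PUT4 lies highest at 5.03, ARO10 and SEO1 lie at -4.01 and -3.88, and the noncoding classes lie mostly below 0.

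The gene with the largest difference was PUT4 (YOR348C, chromosome XV, 986720 to 988797, minus strand), which encodes the high-affinity proline permease. It stood at 844 and 882 CPM in the med21-1002 libraries, at 27.6 and 25.1 in med10-1002 and at 15.0 and 14.7 in parent. Both med21-1002 libraries were far above all 4 others, and the log2 fold change was 5.03 (SE 0.10, edgeR adjusted p = 1.26e-11), a 32.7-fold difference. Of the 15 coding transcripts named for the largest increases, all were higher by 3.72-fold to 32.7-fold, and parent lay below both mutants for 8 and between them for 7. Next in size was a group of stress genes. HSP12, a small membrane-associated stress protein, stood at 21.5 and 25.4 CPM in med21-1002, 0.678 and 1.01 in med10-1002 and 1.78 and 1.90 in parent. Only 14 and 20 reads lay behind the med10-1002 values, against 424 and 370 in med21-1002, and the log2 fold change was 4.79 (SE 0.26, adjusted p = 9.63e-08). DDR2, a small stress protein of unknown function, stood at 27.7 and 46.4 CPM in med21-1002, 1.31 and 2.38 in med10-1002 and 5.61 and 4.97 in parent. Its log2 fold change was 4.33 (SE 0.31, adjusted p = 5.96e-07), and like HSP12 it lay above parent in both med21-1002 libraries and below parent in both med10-1002 libraries.

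**Figure D2:**
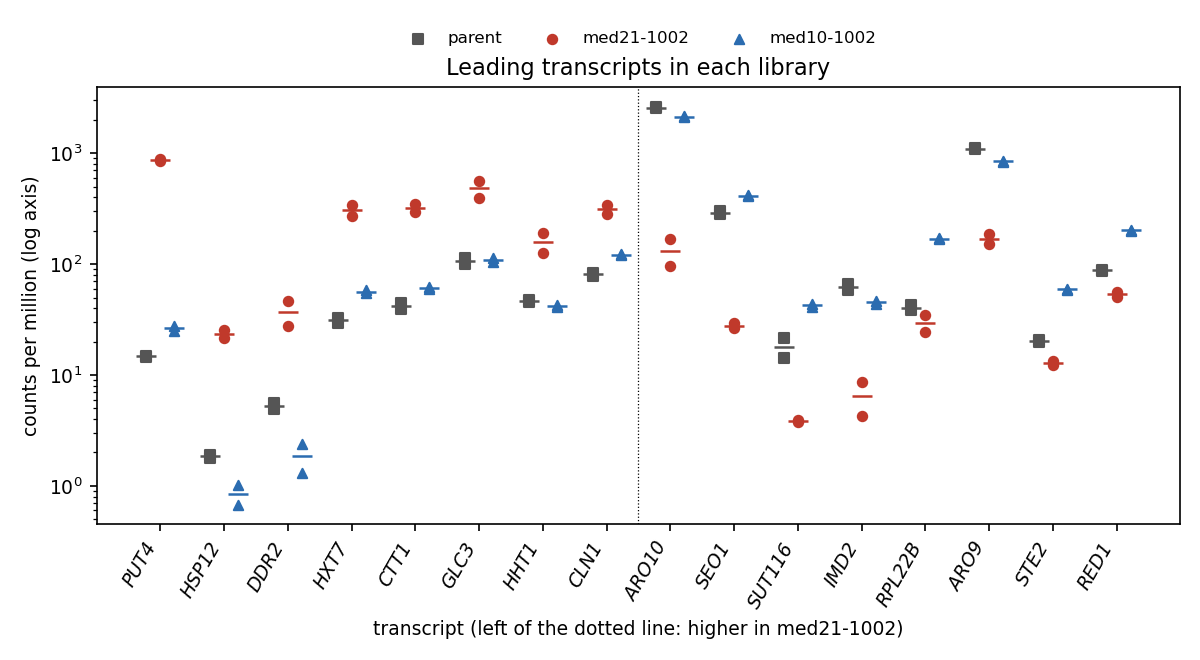
Level in CPM (log axis) of 16 leading transcripts in each of the 6 libraries; symbols are libraries and dashes are group means (n = 2). The 16 were chosen for large or clear differences, so the med21-1002 and med10-1002 libraries overlap in none of them. The parent lies above, between or below them depending on the gene.

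The general stress list holds genes that the paired zinc-finger activators Msn2 and Msn4 are known to switch on through the element AGGGG when glucose runs low or cells meet heat, osmotic or oxidative stress. Of its 31 tested members, 19 were called higher in med21-1002 and 3 lower, with a median log2 fold change of 0.80 beside 0.01 over all tested transcripts. CTT1, the cytosolic catalase, stood at 297 and 350 CPM in med21-1002, 62.6 and 60.1 in med10-1002 and 44.6 and 39.3 in parent (log2 fold change 2.40, SE 0.10, adjusted p = 3.75e-08). HSP26, a small chaperone, stood at 200 and 288 CPM in med21-1002, 48.9 and 43.7 in med10-1002 and 48.8 and 40.8 in parent (2.39, SE 0.16, adjusted p = 2.89e-07). For both genes the med21-1002 libraries lay above the other 4, and med10-1002 overlapped parent for HSP26 and lay above it for CTT1. GPD1, the enzyme that commits glycolytic carbon to glycerol, was higher by 1.78 (SE 0.10), and GPP2, the phosphatase that completes glycerol synthesis, by 1.54 (SE 0.10). The heat shock and chaperone list, which shares HSP26 with the stress list, had 11 of 31 called higher and 4 lower, with a median of 0.10, and 3 were called higher without med10-1002 replicate 1, 6 without its replicate 2 and 5 without either parent library. HSP82 and HSC82, the Hsp90 genes, were not called (adjusted p = 0.876 and 0.617). The hsp82- mark in the labels stands beside HSP82 levels of 5244 to 5999 CPM across the 6 libraries.

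Not all genes named above have their upstream stretch shown. Those of PUT4 and of the stress genes HSP12, DDR2 and CTT1 are shown because they carry the stress element. Each is the run of 300 bases before the annotated start on the R64 build, read from the RefSeq genome and printed on the strand of the gene. Capitals mark AGGGG or its complement CCCCT. PUT4 lies on the minus strand (chrXV:988798-989097), HSP12 on the plus strand (chrVI:106897-107196), DDR2 on the minus strand (chrXV:231789-232088) and CTT1 on the plus strand (chrVII:654309-654608).
PUT4: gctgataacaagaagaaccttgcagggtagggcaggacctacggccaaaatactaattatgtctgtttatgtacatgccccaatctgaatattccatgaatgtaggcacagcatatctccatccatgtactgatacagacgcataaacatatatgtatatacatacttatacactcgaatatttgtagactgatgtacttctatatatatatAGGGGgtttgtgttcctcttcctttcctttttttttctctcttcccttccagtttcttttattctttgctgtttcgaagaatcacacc
HSP12: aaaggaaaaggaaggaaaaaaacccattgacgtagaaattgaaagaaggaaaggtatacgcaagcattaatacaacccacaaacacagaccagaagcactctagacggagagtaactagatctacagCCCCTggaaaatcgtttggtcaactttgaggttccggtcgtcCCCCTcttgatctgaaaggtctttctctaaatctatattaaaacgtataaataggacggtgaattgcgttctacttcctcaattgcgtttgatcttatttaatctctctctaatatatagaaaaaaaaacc
DDR2: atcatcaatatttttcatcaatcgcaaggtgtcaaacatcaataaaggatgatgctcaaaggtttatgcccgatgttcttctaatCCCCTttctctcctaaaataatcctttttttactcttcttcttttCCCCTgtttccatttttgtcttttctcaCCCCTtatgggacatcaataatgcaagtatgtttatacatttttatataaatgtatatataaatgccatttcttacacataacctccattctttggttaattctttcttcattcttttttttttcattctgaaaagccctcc
CTT1: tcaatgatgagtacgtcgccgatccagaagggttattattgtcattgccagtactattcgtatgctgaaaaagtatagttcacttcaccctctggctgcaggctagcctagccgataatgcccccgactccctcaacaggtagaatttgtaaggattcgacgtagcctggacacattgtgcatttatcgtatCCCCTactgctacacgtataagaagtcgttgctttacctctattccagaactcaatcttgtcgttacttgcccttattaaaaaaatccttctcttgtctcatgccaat
The element occurs once before PUT4 and CTT1, at 2 places before HSP12 and at 3 before DDR2. On either strand it was present in 22.9% of the 4897 windows of tested coding transcripts, in 32.6% of the 1257 called higher in med21-1002 and in 18.7% of the 1058 called lower. Among those that differed by at least 2-fold, the share was 55.3% of 103 higher and 15.2% of 231 lower. The TATA-box letters TATAAA were present in 46.2% of all windows, 48.4% of those called higher and 46.3% of those called lower, and the GATA-factor element GATAAG in 14.4%, 13.1% and 16.5%. The Gcn4 element TGACTC was present in 8.45%, 7.24% and 11.3%. These letter matches describe the windows and were not tested, and none of the 4 motifs contains another.

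Reserve-carbohydrate and hexose-uptake genes were also higher in med21-1002. In the trehalose and glycogen list 10 of 14 tested members were called higher and 1 lower (median 0.60). GSY1, a glycogen synthase, stood at 211 and 286 CPM in med21-1002, 59.4 and 53.8 in med10-1002 and 55.2 and 50.1 in parent (log2 fold change 2.13, SE 0.13, adjusted p = 2.25e-07). GLC3, the glycogen branching enzyme, stood at 397 and 568 CPM, 114 and 105, and 113 and 101 in the same order (2.14, SE 0.14). In both, the med10-1002 libraries overlapped parent, and the med21-1002 libraries stood above it. TSL1 and TPS2, subunits of the trehalose synthase complex, were higher by 0.99 (SE 0.11) and 0.95 (SE 0.10). With the med7-1002 libraries in the fit the list had 6 members called higher.

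Of 20 listed hexose transporter genes 9 could be tested, of which 6 were called higher and 0 lower (median 0.73). HXT7, a high-affinity glucose transporter, stood at 273 and 342 CPM in med21-1002, 54.9 and 57.9 in med10-1002 and 29.6 and 32.7 in parent (2.44, SE 0.11, adjusted p = 4.05e-08). HXT6 gave 102 and 133, 26.4 and 29.6, and 21.6 and 23.4 CPM; its sequence is nearly identical to that of HXT7, so reads may be split between them and their separate values are uncertain. HXT4 stood at 958 and 1197 CPM in med21-1002, 296 and 284 in med10-1002 and 107 and 102 in parent (1.89, SE 0.11). For HXT7 and HXT4 both mutants lay above parent, med21-1002 by more. NRG2, a repressor in the glucose-response pathway, was higher by 1.78 (SE 0.11) and STD1, a regulator of glucose sensing, by 0.79 (SE 0.10).

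Genes of the respiratory chain and of the mitochondrial ribosome were also called mostly higher in med21-1002, while those of the tricarboxylic acid cycle split, with 11 of 25 higher and 8 lower (median 0.09), or 6 and 5 without med10-1002 replicate 1. Of 37 tested genes for the respiratory chain and ATP synthase, 32 were called higher in med21-1002 and 0 lower, with a median of 0.64. QCR8, a subunit of the cytochrome bc1 complex, stood at 64.2 and 93.4 CPM in med21-1002, 29.6 and 32.1 in med10-1002 and 41.3 and 45.0 in parent (1.35, SE 0.16, adjusted p = 2.88e-05). CYT1, cytochrome c1, stood at 304 and 329, 176 and 186, and 144 and 146 CPM (0.81, SE 0.08). Both mutants lay above parent for CYT1, while QCR8 lay above parent in med21-1002 and below it in med10-1002. HAP4, the activating subunit of the HAP complex that drives respiratory genes, stood at 1125 and 1025 CPM in med21-1002, 628 and 603 in med10-1002 and 260 and 273 in parent (0.80, SE 0.09). Of 66 mitochondrial ribosomal protein genes 43 were called higher and 0 lower (median 0.48), a count that was 20 without med10-1002 replicate 1 and 18 with the med7-1002 libraries. MRPS17, of the small subunit, was higher by 1.32 (SE 0.17) and MRP51 by 0.68 (SE 0.10).

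Transcript length moved with library as well as with group, which touches lists of short genes. Among transcripts of up to 500 bases the median log2 difference from the parent mean was -0.26 in med21-1002 replicate 1 and 0.07 in replicate 2, against -0.32 and -0.23 in the med10-1002 libraries. The respiratory list has a median transcript length of 691 bases. After removal of each library's trend with length, its counts were 32 higher and 0 lower, and those of the mitochondrial ribosomal list 42 and 0.

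Histone genes showed the highest median of all lists, 0.94, with 10 of 11 tested members called higher and 0 lower, before and after the length trend was removed. HHT1, a gene of histone H3, stood at 127 and 193 CPM in med21-1002, 40.7 and 42.7 in med10-1002 and 47.0 and 45.2 in parent (1.94, SE 0.16, adjusted p = 1.80e-06). HTA2, a gene of histone H2A, stood at 75.9 and 92.0, 33.6 and 31.0, and 19.2 and 17.6 CPM (1.38, SE 0.12). HHF1 and HHF2, the genes of histone H4, were higher by 1.58 (SE 0.15) and 1.25 (SE 0.11). The med21-1002 libraries lay above all others for each of these, and their 2 values for HHT1 differed more from each other than the 4 remaining libraries did. Histone gene copies are close in sequence, so reads may have been shared between copies.

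Cell-cycle genes of G1 followed, with 11 of 17 called higher and 1 lower (median 0.41), a count of higher genes that was 7 without either med10-1002 library and 7 with the med7-1002 libraries. CLN1, a G1 cyclin, stood at 342 and 283 CPM in med21-1002, 124 and 121 in med10-1002 and 83.1 and 78.4 in parent (1.35, SE 0.10, adjusted p = 7.17e-07). CLN3, the cyclin that starts the G1 programme, stood at 1325 and 1206, 702 and 705, and 695 and 740 CPM (0.85, SE 0.09). For CLN3 the med10-1002 libraries lay within the parent range and the med21-1002 libraries stood alone. CIP1, an inhibitor of the G1 cyclin kinase, stood at 188 and 198 CPM in med21-1002 and 49.6 and 51.8 in med10-1002 (1.93). PLM2, a protein with a forkhead-associated domain whose gene is induced by DNA damage, was higher by 1.90 (SE 0.13). In the G2 and mitosis list 10 of 20 were called higher and 2 lower (median 0.21). Here CLB2, the main mitotic cyclin, was higher by 0.50 (SE 0.08) and CLB1 lower by a log2 fold change of -0.78 (SE 0.10). The 10 higher genes were 5 without med10-1002 replicate 1.

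The proteasome list had 21 of 36 members called higher and 0 lower (median 0.29), and the list of RNA polymerase II and general transcription factors 15 of 31 higher and 1 lower (median 0.27). PUP3, a subunit of the proteasome core, was higher by 0.67 (SE 0.10) and TOA1, the large subunit of TFIIA, by 0.87 (SE 0.13). Without med10-1002 replicate 1 these counts were 12 and 8, and without med21-1002 replicate 1 the transcription factor median was 0.43. Oxidant defence genes had 10 of 23 higher and 1 lower (median 0.23), led by TRX2, a thioredoxin, at 1.08 (SE 0.13), and 6 higher without med10-1002 replicate 1. Their median was 0.37 without med21-1002 replicate 1. Of 24 listed Mediator genes 20 were tested, of which 2 were called higher (MED2 at 0.57 and SOH1 at 0.41) and 2 lower (MED1 at -0.49 and MED6 at -0.56). Without med21-1002 replicate 1 the lower ones were 4, and SOH1 was not called in 6 of 16 alternatives nor MED6 in 2 (adjusted p up to 0.174 and 0.134). SRB7, the gene of Med21, stood at 10.4 and 13.8 CPM in med21-1002, 9.01 and 10.1 in med10-1002 and 12.5 and 14.9 in parent, and was not called (0.34, SE 0.20, adjusted p = 0.177). NUT2, the gene of Med10, was not analysed here. Since neither allele is described as a deletion, these levels do not check the labels.

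**Figure D3:**
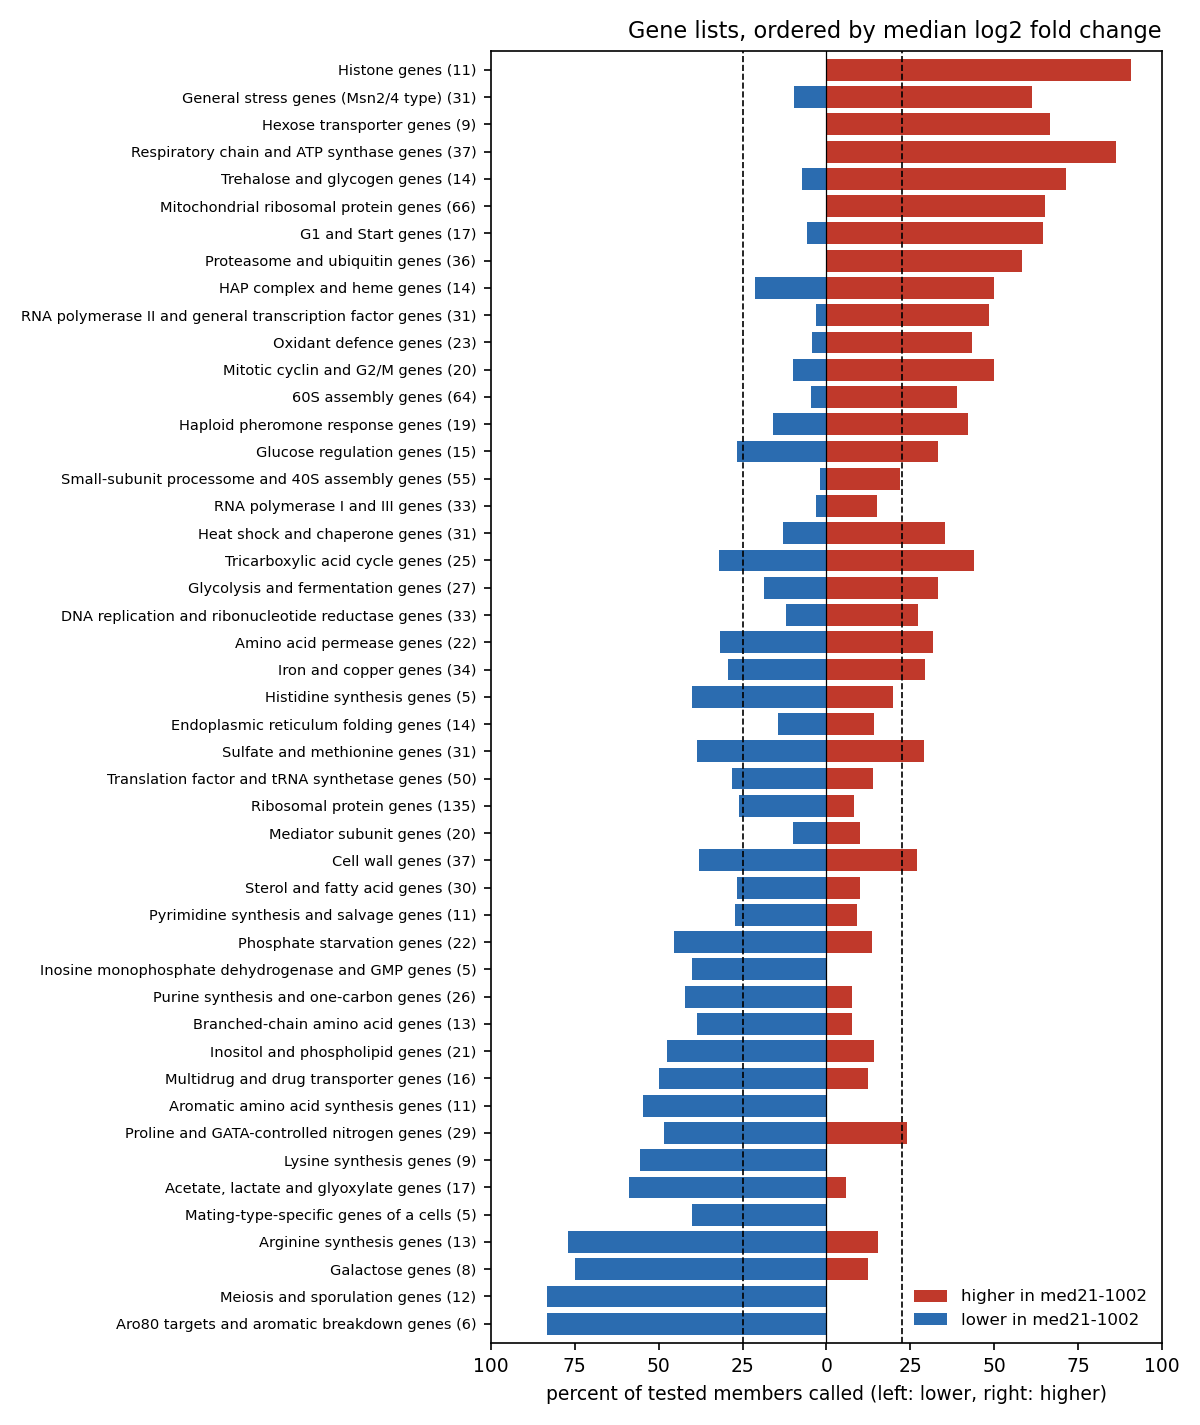
Percent of tested members called higher (right) or lower (left) in med21-1002 for the gene lists with at least 5 tested members, ordered by median log2 fold change; the number tested is in parentheses. Dashed lines mark the shares over all tested transcripts, 22.4% higher and 24.9% lower.

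Of the transcripts that were lower in med21-1002, ARO10 (YDR380W, chromosome IV, 1234113 to 1236253, plus strand) had the largest difference among those at or above a mean of 3 log2 CPM. It encodes the decarboxylase of the Ehrlich pathway, which turns aromatic and other amino acids into fusel alcohols. It stood at 168 and 96.0 CPM in med21-1002, 2160 and 2109 in med10-1002 and 2603 and 2555 in parent. The log2 fold change was -4.01 (SE 0.20, adjusted p = 5.84e-08), a 16.1-fold difference, and med10-1002 was not called against parent (adjusted p = 0.255). ARO9, the aromatic aminotransferase of the same pathway, stood at 188 and 152 CPM in med21-1002, 855 and 835 in med10-1002 and 1110 and 1091 in parent (-2.31, SE 0.11, adjusted p = 4.05e-08). ESBP6, a membrane transporter, stood at 424 and 376, 1351 and 1342, and 1482 and 1544 CPM (-1.75, SE 0.10). In all 3 genes the med21-1002 libraries fell far below the other 4. ARO80, the zinc-cluster activator of ARO9 and ARO10, was itself lower by a log2 fold change of -0.99 (SE 0.09) and stood at 197 and 173 CPM against 355 and 382. Of 6 tested genes on the list of Aro80 targets and aromatic breakdown, 5 were called lower and 0 higher (median -1.37), and ARO8 was not called (adjusted p = 0.219).

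The windows upstream of ARO10, ARO9 and ESBP6 are shown because Aro80 is known to bind paired CCG triplets with 7 bases between them, CCGNNNNNNNCCG. Capitals mark every such pair on either strand, triplets and spacer, and pairs can share a triplet. The windows lie at chrIV:1233813-1234112 (plus strand), chrVIII:375379-375678 (plus strand) and chrXIV:392344-392643 (minus strand) on R64.
ARO10: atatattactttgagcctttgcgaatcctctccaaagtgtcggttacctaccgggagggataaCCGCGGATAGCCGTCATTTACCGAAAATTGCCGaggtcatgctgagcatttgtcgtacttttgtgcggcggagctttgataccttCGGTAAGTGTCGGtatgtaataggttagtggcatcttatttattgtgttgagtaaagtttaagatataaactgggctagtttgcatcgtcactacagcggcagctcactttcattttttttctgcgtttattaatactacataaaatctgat
ARO9: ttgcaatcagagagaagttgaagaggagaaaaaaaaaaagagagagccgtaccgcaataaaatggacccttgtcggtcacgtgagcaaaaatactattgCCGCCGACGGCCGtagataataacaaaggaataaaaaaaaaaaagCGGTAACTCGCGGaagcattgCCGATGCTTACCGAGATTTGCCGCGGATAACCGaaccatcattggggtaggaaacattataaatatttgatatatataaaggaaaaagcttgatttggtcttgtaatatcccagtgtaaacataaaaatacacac
ESBP6: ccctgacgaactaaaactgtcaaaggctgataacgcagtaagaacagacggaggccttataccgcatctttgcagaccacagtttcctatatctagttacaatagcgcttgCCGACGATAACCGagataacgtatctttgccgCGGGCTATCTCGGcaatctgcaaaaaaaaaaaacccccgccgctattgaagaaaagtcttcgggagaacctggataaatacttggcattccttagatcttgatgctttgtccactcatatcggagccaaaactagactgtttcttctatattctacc
The pair occurs at 4 places before ARO10, 5 before ARO9 and 2 before ESBP6. It was present in 3.84% of the 4897 windows, in 5.20% of those of genes called lower in med21-1002 and in 3.90% of those called higher. This motif was chosen after the values of these genes had been seen. SUT485, a stable unannotated transcript on the opposite strand, covers almost all of ARO10 and ends in the last bases of the window shown (chromosome IV, 1234084 to 1236199, minus strand). It stood at 76.0 and 61.8 CPM in med21-1002, 24.3 and 27.6 in med10-1002 and 49.5 and 74.0 in parent, and was higher by 1.41 (SE 0.18, adjusted p = 5.01e-05), the largest increase among the noncoding transcripts named by the same rule.

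SEO1 (YAL067C, chromosome I, 7013 to 9049, minus strand), a putative permease of the allantoate family, stood at 29.6 and 26.3 CPM in med21-1002, 417 and 410 in med10-1002 and 300 and 282 in parent. The log2 fold change was -3.88 (SE 0.10, adjusted p = 1.15e-10), with med21-1002 below and med10-1002 above parent. IMD2, an inosine monophosphate dehydrogenase of GTP synthesis, stood at 4.26 and 8.66 CPM, 44.1 and 46.6, and 66.3 and 58.5 (-2.85, SE 0.22, adjusted p = 1.36e-06). Its relative IMD4 stood at 260 and 193 CPM in med21-1002, 629 and 560 in med10-1002 and 220 and 198 in parent (-1.39, SE 0.13). IMD2 thus differed through a low med21-1002 level and IMD4 through a high med10-1002 level. RPL22B, a minor gene copy for a ribosomal protein, was highest in med10-1002 and lowest in med21-1002, with 34.4 and 24.4 CPM in med21-1002, 168 and 171 in med10-1002 and 38.3 and 42.7 in parent (-2.52, SE 0.14). ULI1, induced in the unfolded protein response, had med21-1002 close to parent and med10-1002 high, with 10.8 and 12.4, 62.9 and 56.9, and 9.72 and 10.9 CPM (-2.37, SE 0.14). Of the 15 transcripts named for the largest decreases, 9 were coding and 6 noncoding, and their folds ran from 5.12 to 16.1. Parent lay between the mutants for 12, above both for 2 and below both for 1.

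Nitrogen genes went both ways. The GATA-controlled list, genes that the activators Gln3 and Gat1 switch on when good nitrogen sources run out, had 14 of 29 called lower and 7 higher (median -0.28), although it holds PUT4. GAP1, the general amino acid permease, stood at 419 and 454 CPM in med21-1002, 163 and 161 in med10-1002 and 144 and 124 in parent (1.43, SE 0.09). MEP2, the ammonium permease and sensor, stood at 41.3 and 38.8, 113 and 111, and 51.8 and 54.6 CPM (-1.48, SE 0.10). MEP2 was named outside the rule given for named genes. GZF3, a GATA repressor, stood at 113 and 103, 389 and 391, and 125 and 136 CPM (-1.85, SE 0.09). CAN1, the arginine permease, stood at 311 and 289, 772 and 766, and 335 and 331 CPM (-1.36, SE 0.08); all groups carry can1-100. GAP1 and PUT4 were thus set apart by med21-1002, and MEP2, GZF3 and CAN1 by high med10-1002 values. Among 22 amino acid permease genes 7 were called higher and 7 lower, with 4 higher without either med10-1002 library. SAM3, the S-adenosylmethionine permease, stood at 268 and 285 CPM in med21-1002, 850 and 801 in med10-1002 and 1093 and 1022 in parent (-1.58, SE 0.09), and MMP1, the S-methylmethionine permease, at 324 and 316, 878 and 834, and 932 and 827 (-1.42, SE 0.09).

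Among the lists of amino acid synthesis genes, called genes were more often lower than higher in med21-1002. In the arginine list 10 of 13 were called lower and 2 higher (median -0.68). ARG1, argininosuccinate synthetase, was among the higher ones, with 221 and 191 CPM in med21-1002, 64.4 and 63.5 in med10-1002 and 82.6 and 89.1 in parent (1.69, SE 0.10). The branched-chain list had 5 of 13 lower and 1 higher (median -0.24), with BAT2, the cytosolic aminotransferase, at -1.37 (SE 0.09) and LEU1, isopropylmalate isomerase, at 0.87 (SE 0.11). The aromatic synthesis list had 6 of 11 lower and 0 higher (median -0.26), 2 lower without med10-1002 replicate 1 and 3 without its replicate 2 or without med21-1002 replicate 2. It was led by ARO4, the first enzyme of the pathway, at -0.82 (SE 0.10). Histidine genes had 2 of 5 lower and 1 higher. The lysine list had 5 of 9 lower and 0 higher (median -0.32), and 1 lower with the med7-1002 libraries in the fit. The purine list had 11 of 26 lower and 2 higher (median -0.23), with 6 lower without med10-1002 replicate 1, 5 without its replicate 2, 6 without med21-1002 replicate 2 and 7 without either parent library. Without med21-1002 replicate 2 the medians were nearer 0, at -0.13 for the branched-chain and purine lists and -0.14 for the aromatic list. ADE2 stood at 52.6 and 53.8 CPM in med21-1002, 147 and 143 in med10-1002 and 64.3 and 63.8 in parent (-1.45, SE 0.09); all groups are labelled ade-.

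Among genes of meiosis, galactose use and other carbon sources, which are usually low in glucose-grown haploid cells, most calls were lower in med21-1002. Of 34 listed meiosis and sporulation genes 12 could be tested. All 12 had a negative log2 fold change, and 10 were called lower in med21-1002 and 0 higher (median -0.82), and 6 were called lower without either med10-1002 library. RED1, a protein of the meiotic chromosome axis, stood at 56.5 and 50.9 CPM in med21-1002, 205 and 200 in med10-1002 and 88.9 and 86.6 in parent (-1.91, SE 0.09, adjusted p = 4.05e-08). IME2, a kinase that drives entry into meiosis, stood at 71.5 and 61.0, 115 and 107, and 40.5 and 40.8 CPM (-0.74, SE 0.10), above parent in both mutants. Of 8 galactose genes 6 were called lower and 1 higher (median -0.78); GAL1, galactokinase, stood at 30.3 and 25.1, 54.3 and 45.9, and 23.4 and 22.3 CPM (-0.85, SE 0.14). The acetate, lactate and glyoxylate list had 10 of 17 lower and 1 higher (median -0.53). ICL1, isocitrate lyase, stood at 34.5 and 27.0, 78.9 and 80.4, and 39.4 and 40.5 CPM (-1.37, SE 0.12), while CYB2, a lactate dehydrogenase, went the other way (1.31, SE 0.17). STE2, the alpha-factor receptor that a cells carry, stood at 13.5 and 12.4 CPM in med21-1002, 59.9 and 58.7 in med10-1002 and 20.6 and 19.99 in parent (-2.19, SE 0.13, adjusted p = 1.17e-07). Of the 4 tested alpha-cell genes none was called by edgeR; none had an unadjusted p under 0.05, and DESeq2 called none. Without med21-1002 replicate 2 STE3 and SAG1, the alpha-agglutinin gene, were called higher by edgeR (adjusted p = 0.00819 and 0.00344), and without replicate 1 the alpha-factor gene MF(ALPHA)1 was (adjusted p = 0.0243). With the length correction STE3 was called as well (adjusted p = 0.0315), and over the alternatives the adjusted p of these genes reached 0.784, 0.923 and 0.995.

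Smaller or mixed lists complete the coding genes. Phosphate genes had 10 of 22 lower and 3 higher (median -0.18), with 5 higher without either med21-1002 library and a median of -0.04 without replicate 2. The highest of the 3 was GPP2 (1.54), the phosphatase of glycerol synthesis described above with the stress genes. PHO5, the secreted acid phosphatase, stood at 47.8 and 52.8 CPM in med21-1002, 209 and 174 in med10-1002 and 135 and 92.8 in parent (-1.93, SE 0.16), and PHO4, the activator of the pathway, at 54.4 and 56.4, 104 and 110, and 151 and 172 (-0.95, SE 0.10). Iron and copper genes had 10 of 34 higher and 10 lower. The reductase genes FRE3 and FRE2 were lower (-1.77, SE 0.09 and -1.56, SE 0.10). FET3, the multicopper oxidase of iron uptake, named outside the rule given for named genes, was higher (1.08, SE 0.10). Drug transporters had 8 of 16 lower and 2 higher (median -0.26), with QDR3 at -1.37 (SE 0.09) and TPO2, a polyamine exporter, at -1.46 (SE 0.10). Inositol and phospholipid genes had 10 of 21 lower and 3 higher (median -0.25), with OPI3, a phospholipid methyltransferase, at -0.996 (SE 0.15). The higher inositol genes were 0 without med10-1002 replicate 1 and 5 without med21-1002 replicate 1, where the median was -0.16. Cell wall genes had 14 of 37 lower and 10 higher, sulfate and methionine genes 12 of 31 lower and 9 higher, and pheromone response genes 8 of 19 higher and 3 lower, with FUS1, a cell-fusion protein, at 1.27 (SE 0.12). Without med10-1002 replicate 1, 5 drug transporter and 8 cell wall genes were called lower, and 6 iron and copper, 2 sulfate and 4 pheromone response genes higher. Without med10-1002 replicate 2, 5 inositol and 7 cell wall genes were lower, and without either parent library 9 cell wall genes. Ribosomal protein genes had 35 of 135 lower (25.9%), near the 24.9% over all tested transcripts. Only 11 were higher (8.15%), below the 22.4% over all tested transcripts (median -0.07). These counts were unstable: with the med7-1002 libraries in the fit 6 were lower and 0 higher. The median was 0.02 without med10-1002 replicate 1 and -0.14 without its replicate 2. Ribosome assembly genes had 12 of 55 higher and 1 lower for the small subunit and 25 of 64 higher and 3 lower for the large one. With the med7-1002 libraries in the fit, 1 gene of each list was called higher. The small-subunit median was 0.12, and 0.07 and 0.22 without med21-1002 replicates 1 and 2. For the large subunit it was 0.17, and 0.14 and 0.26 in the same settings. Without med21-1002 replicate 1 the lower assembly genes were 7 for the small subunit and 9 for the large one.

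The lists not yet described held fewer calls or split both ways. Heme and HAP complex genes had 7 of 14 higher and 3 lower (median 0.28), with HEM12, a heme synthesis enzyme, at -1.11. Glycolysis and fermentation genes had 9 of 27 higher and 5 lower; PYK2, a minor pyruvate kinase, was higher by 1.32 and ADH4, an alcohol dehydrogenase, was at -1.06. Glucose regulation genes had 5 of 15 higher and 4 lower, DNA replication genes 9 of 33 higher and 4 lower, and RNA polymerase I and III genes 5 of 33 higher and 1 lower. Translation factor and tRNA synthetase genes had 14 of 50 lower and 7 higher, and sterol and fatty acid genes 8 of 30 lower and 3 higher. Ammonium assimilation genes had 2 of 4 higher and 2 lower, pyrimidine genes 1 of 11 higher and 3 lower, and the GMP list 0 of 5 higher and 2 lower. Endoplasmic reticulum folding genes had 2 of 14 higher and 2 lower. Without med10-1002 replicate 1 the higher replication genes were 3, the higher endoplasmic reticulum folding genes 0, the lower translation genes 2 and the lower sterol genes 3. Without med21-1002 replicate 1 the lower translation genes were 23, the lower replication genes 7, and 10 RNA polymerase I and III genes were higher and 4 lower. In the same setting 3 pyrimidine genes were higher and 5 lower, and 4 genes of the GMP list were lower. Without med21-1002 replicate 2 the higher glucose regulation genes were 9, and without either med10-1002 library 1 was lower.

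Noncoding transcripts were split less evenly than coding ones. SUTs (stable unannotated transcripts), XUTs (degraded by the exonuclease Xrn1) and CUTs (cryptic unstable transcripts, degraded by the nuclear exosome) are made by RNA polymerase II, often from the flanks of nucleosome-free promoters and often antisense to genes. Of 369 tested SUTs 210 were called lower in med21-1002 and 12 higher, with a median of -0.98 beside 0.06 for the 4897 coding transcripts. Against parent, the median SUT was at -0.44 in med21-1002 and 0.53 in med10-1002. Of 334 XUTs 141 were lower and 8 higher (median -0.69), with medians against parent of -0.41 and 0.29. Of 101 CUTs 13 were lower and 1 higher (median -0.08), and here both mutants had a median below parent (-0.58 and -0.45). With the med7-1002 libraries in the fit 126 SUTs, 44 XUTs and 1 CUT were lower, and without med10-1002 replicate 2 the lower XUTs were 87 and the lower CUTs 4. The CUT median was 0.02 without med10-1002 replicate 2, so its sign rested on that library, and 6 CUTs were lower without replicate 1.

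The noncoding classes together took 0.781% and 0.758% of assigned counts in med21-1002, 1.37% and 1.48% in med10-1002 and 0.946% and 1.04% in parent, so the groups did not overlap. At matched levels the classes still differed in their counts. Between 20 and 100 CPM, 81 of 104 noncoding transcripts were lower and 5 higher (median -1.10), against 422 lower and 505 higher of 1864 coding ones (median 0.06). The strand setting of the counting is not given in the sources used here, so reads of a noncoding transcript and of a gene opposite to it may not be fully separated. The 300 noncoding transcripts with no coding transcript on the opposite strand had 155 lower and 7 higher (median -0.99), and the 504 with one had 209 lower and 14 higher (median -0.62). The 232 coding transcripts opposite a called-lower noncoding one had a median of -0.01, with 57 higher and 73 lower. The 324 opposite a noncoding one that was not called had 83 higher and 81 lower (median 0.02). Over all 4897 coding transcripts 25.7% were called higher and 21.6% lower. In bulk libraries such as these, more of an RNA per cell and more cells making it cannot be told apart.

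**Figure D4:**
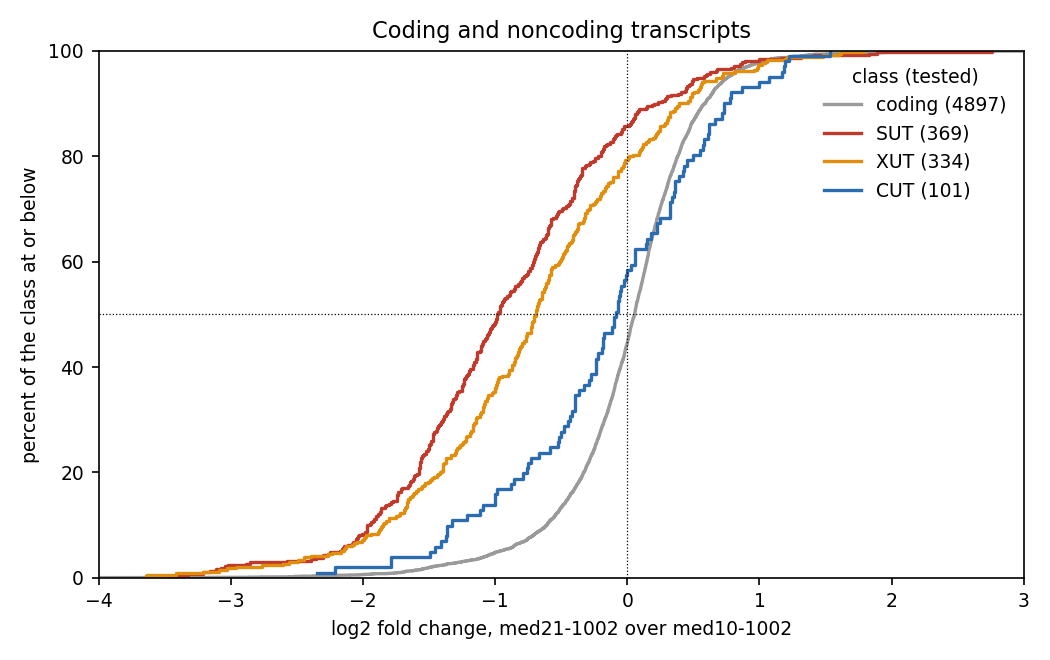
Cumulative share (percent) of tested transcripts at or below each log2 fold change of med21-1002 over med10-1002, by class. The curves cross 50% at 0.06 for coding transcripts, -0.08 for CUTs, -0.69 for XUTs and -0.98 for SUTs.

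SUT116 (chromosome VII, 362189 to 364049, plus strand) had the largest decrease of the named noncoding transcripts. It stood at 3.90 and 3.78 CPM in med21-1002, 41.0 and 43.9 in med10-1002 and 14.2 and 21.7 in parent (-3.46, SE 0.21, adjusted p = 2.08e-07). SUT692 (chromosome XII, 290047 to 291689, minus strand), opposite the galactose permease gene GAL2, stood at 3.09 and 3.44, 30.2 and 30.0, and 8.26 and 9.16 CPM (-3.21, SE 0.18). In both, med21-1002 lay below and med10-1002 above parent in every library. GAL2, named here for its position after its values were seen, went the other way and was higher in med21-1002 (1.00, SE 0.24, adjusted p = 0.00476). XUT_8F-92 stood at 9.48 and 11.0 CPM in med21-1002, 54.7 and 56.3 in med10-1002 and 30.0 and 30.4 in parent (-2.44, SE 0.13). Besides SUT485, the noncoding transcripts named for increases were SUT163 (1.16, SE 0.22), opposite the glucose transporter gene HXT1, and XUT_15R-430 (0.98, SE 0.14), and both lay below parent in med10-1002 and within its range in med21-1002.

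Genes near chromosome ends, some of which Sir proteins and histone deacetylases are known to keep low in yeast, were lower in med21-1002 than in med10-1002. A part of these proteins in the difference was not tested. Of 90 tested coding transcripts within 20000 bases of an end, 62 were called lower and 8 higher, with a median of -0.84, against 996 lower and 1249 higher of 4807 farther in (median 0.06). Their median against parent was -0.37 in med21-1002 and 0.34 in med10-1002. The difference shrank with distance: the median was -1.11 for the 23 within 10000 bases, -0.73 for the 67 between 10000 and 20000, -0.08 for 221 up to 40000 and 0.06 for 531 up to 80000. Of the 9 coding transcripts named for the largest decreases, SEO1, IMD2, BDS1 and YIR042C lie within 10000 bases. BDS1 (chromosome XV, 5897 to 8205, plus strand), a sulfatase, stood at 45.1 and 41.1 CPM in med21-1002, 304 and 283 in med10-1002 and 131 and 120 in parent (-2.77, SE 0.10, adjusted p = 3.61e-09). YIR042C, of unknown function, stood at 7.45 and 10.4, 50.7 and 53.3, and 11.7 and 13.4 CPM (-2.56, SE 0.17). Below the level set for named genes, YER188W, near an end of chromosome V, had the lowest value of all called transcripts (-5.22, SE 0.50), with 1 and 6 reads in med21-1002 and 164 and 157 in med10-1002; it was chosen after its values were seen. Genes near chromosome ends often belong to families of similar copies, so part of their reads may be shared with other copies.

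**Figure D5:**
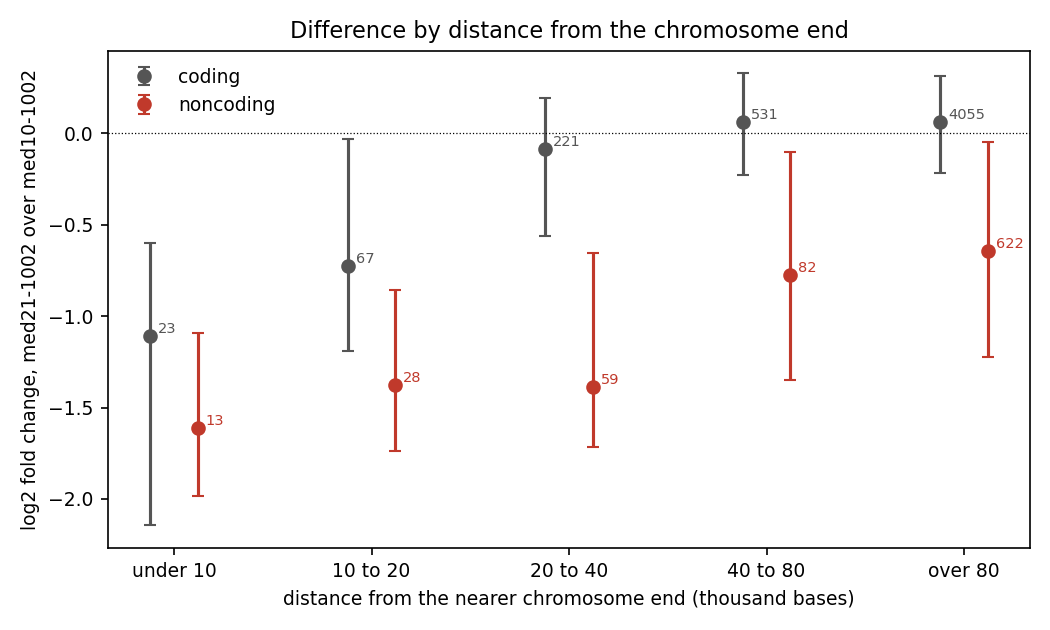
Median log2 fold change of med21-1002 over med10-1002 by distance from the nearer chromosome end (kb) for coding and noncoding transcripts; bars span the quartiles and small numbers are transcripts. Coding medians run from -1.11 nearest the ends to 0.06 beyond 80000 bases, and noncoding medians from -1.61 (13 transcripts) to -0.64.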

How the data were processed

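Newly made RNA was sequenced in 2 libraries each of parent, med21-1002 and med10-1002. The deposited values are whole-number read counts per annotated transcript, which the authors made with STAR 2.3.0, SAMtools and HTSeq, per the submitters' processing notes. The handling of strand and of multiply matching reads is not given in the sources used here. In these files, the 5 tally lines that name no transcript were left out; reads without a feature were 32.7% to 36.3%. Spike-in reads were not used, so a change in total RNA made per cell cannot be seen.

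The counts were tested with edgeR 4.0.16 (R 4.3.3) in 1 fit of the 6 libraries, with group means as coefficients and 3 residual df, after TMM scaling and filterByExpr at a minimum count of 10, which removed 329 transcripts. P-values were Benjamini-Hochberg adjusted over the 5701 tested transcripts, and SE is the log2 fold change divided by the root of F. DESeq2 1.42.0 and 15 more settings were tried as alternatives. On simulated counts for 5683 transcripts the procedure found 97% of 2-fold and 100% of 4-fold changes, with 11 false calls. Only transcripts above a set level were changed, 100 per fold, and the spread was taken from the fit itself. These figures therefore do not give the recovery of low transcripts or the number of false calls in the real comparison.

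The comparison, the gene lists and the tests were chosen with earlier results of these data known. Named are the 15 transcripts per direction with the largest called change, at a mean log2 CPM of at least 3 (prior count 2) and with no overlap of the mutants' libraries, the 3 such noncoding ones, the 4 members of each of 49 lists with the smallest p, the Mediator and Hsp90 genes, and the 5 per direction with the smallest adjusted p. Lists are described by counts and medians without a test. Annotation coordinates are on R64; 4842 of 4928 coding transcripts matched RefSeq by systematic name. Upstream windows are the 300 bases before the deposited start, since no table of promoter windows was used.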

Additional observations from a re-analysis of the deposited data

Results flagged for a closer look

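For 20 of the 37 transcripts named by change or p, 12 coding and 8 noncoding, med21-1002 and med10-1002 lay on opposite sides of parent, each called against it by edgeR. Both comparisons share the parent libraries, and the difference between the mutants is the direct test. The 37 were themselves picked by that difference, which can favour opposite sides. The share over all tested transcripts was not counted, so the 20 describe only the named ones. Among those lower in med21-1002, the direct log2 fold change was -3.88 for SEO1, -2.77 for BDS1, -2.56 for YIR042C, -2.52 for RPL22B, -2.52 for YDL241W and -2.46 for PDH1. The noncoding ones were SUT116 at -3.46, SUT692 at -3.21, XUT_8F-92 at -2.44, XUT_7F-333 at -2.39, SUT711 at -2.39, SUT658 at -2.36, SUT452 at -2.15 and SUT176 at -1.99. Those higher in med21-1002 were HSP12 at 4.79, DDR2 at 4.33, NFG1 at 2.05, YER053C-A at 1.98, CIP1 at 1.93 and PLM2 at 1.90. The 8 noncoding transcripts were all lower in med21-1002 in the direct test. By the way they were selected, each therefore lay below parent in med21-1002 and above it in med10-1002.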

How the results depend on the processing

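Over the 16 alternatives no called transcript was called in the opposite direction. Of the 205 named transcripts with a call, 162 were called in every alternative that tested them. The count of calls was 2700 and lay between 2379 and 2980 with other scalings, filters, DESeq2, the mutant libraries alone, the length correction or the replicate block. With the med7-1002 libraries added it was 1150, with 539 higher and 611 lower; the cause was not tested. Leaving out single libraries gave 1568 to 3278 calls, 625 to 1697 higher and 943 to 1581 lower; the lowest were without med10-1002 replicate 1. The median of SUTs was -1.17 with a mean of at least 100 counts, where fewer transcripts were tested, and ran from -1.01 to -0.87 without single libraries. Replicate numbers did not pair the samples: same-numbered libraries had correlations of -0.08 (parent with med21-1002), 0.12 (parent with med10-1002) and 0.06 (the mutants with each other), and the fit with the replicate number as a block gave 2731 calls. With 2 libraries per group, the SE of a single gene rests on little replication and may reflect technical spread only.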
